A study of Homo sapiens with 12 samples.

Results

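The mitosis and kinetochore genes are 56 human genes whose products start mitosis, attach and separate the chromosomes and divide the cell. They were chosen by symbol, by a rule that uses no measured value but with earlier results of these data known, from mitotic kinases and cyclins and from kinetochore, spindle, condensin and cytokinesis genes, and all 56 were found among the 58735 genes of the count table. Of these, 54 passed the filter on low counts, which left 15471 genes to test. Transcripts were counted in THP-1 macrophages, a macrophage model made from a leukaemia line of human monocytes. In 6 libraries the cells had received a synthetic mimic of miR-122-5p, a microRNA, at 30 nM for 24 h, and in the other 6 a control microRNA mimic at the same dose and time. All cells, controls included, were then rested and given LPS, a component of bacterial outer membranes that TLR4 senses, for 4 h. The comparison asks what miR-122-5p changes in stimulated macrophages, and since the labels name no separate cultures for the 6 libraries of a group, the p-values reflect the spread among libraries, which may be technical.

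Entry into mitosis is driven by the kinase CDK1 with its cyclins, and exit follows when a ubiquitin ligase, the anaphase-promoting complex, destroys cyclin B and securin. Between these points the chromosomes are condensed, kinetochores built on their centromeres capture microtubules, and the spindle assembly checkpoint holds anaphase until every kinetochore is attached. Many of the genes are transcribed together late in the cell cycle by the factors MYBL2 and FOXM1 with the MuvB complex, which binds a promoter sequence called the cell cycle genes homology region (CHR), often beside CCAAT boxes bound by the factor NF-Y; in cells that have left the cycle the same promoters are held by the repressive DREAM complex. THP-1 cells divide in culture and slow or stop when they are differentiated into macrophages.

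The sequences that bear on the comparison are that of the microRNA and those of the promoters. The mature miR-122-5p, as RefSeq gives it (GRCh38.p14), reads as follows, with the seed (bases 2 to 8), which pairs with target transcripts, in capitals.
hsa-miR-122-5p: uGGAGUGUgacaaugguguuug
RefSeq promoter windows, from 250 bases before to 50 bases after an annotated start, matched 47 of the 56 genes. Windows of 4 genes are printed from the GRCh38.p14 table, on the plus strand of the gene and of the chromosome, because they differ in the CHR and in the direction of their transcripts. Capitals mark matches to the CHR, here TTTGAA on either strand, and to the CCAAT box, also on either strand.
CCNB2, chr15:59104896-59105195: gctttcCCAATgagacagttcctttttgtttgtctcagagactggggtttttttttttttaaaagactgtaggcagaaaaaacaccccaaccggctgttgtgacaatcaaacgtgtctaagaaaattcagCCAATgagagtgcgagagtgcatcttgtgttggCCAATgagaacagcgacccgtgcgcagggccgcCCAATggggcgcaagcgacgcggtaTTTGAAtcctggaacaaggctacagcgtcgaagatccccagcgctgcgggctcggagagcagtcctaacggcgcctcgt
BUB1B, chr15:40160819-40161118: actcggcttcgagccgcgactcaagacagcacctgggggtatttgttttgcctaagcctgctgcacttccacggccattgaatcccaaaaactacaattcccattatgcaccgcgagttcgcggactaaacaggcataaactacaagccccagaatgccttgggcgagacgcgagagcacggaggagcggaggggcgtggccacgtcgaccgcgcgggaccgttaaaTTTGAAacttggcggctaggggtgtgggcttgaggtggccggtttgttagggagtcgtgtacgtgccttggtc
CCNB1, chr5:69166900-69167199: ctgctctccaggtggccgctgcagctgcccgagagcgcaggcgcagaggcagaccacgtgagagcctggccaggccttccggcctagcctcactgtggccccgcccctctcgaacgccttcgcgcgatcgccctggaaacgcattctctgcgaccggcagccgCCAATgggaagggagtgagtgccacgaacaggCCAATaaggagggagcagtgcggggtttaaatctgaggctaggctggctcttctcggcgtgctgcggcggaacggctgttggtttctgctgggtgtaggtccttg
SMC4, chr3:160399400-160399699: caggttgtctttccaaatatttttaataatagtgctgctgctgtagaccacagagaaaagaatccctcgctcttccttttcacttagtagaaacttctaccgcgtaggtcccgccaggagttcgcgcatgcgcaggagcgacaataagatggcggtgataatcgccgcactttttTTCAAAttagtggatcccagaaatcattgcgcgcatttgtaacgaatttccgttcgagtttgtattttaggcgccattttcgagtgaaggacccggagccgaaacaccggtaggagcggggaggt
The window of CCNB2, a B-type cyclin, holds a CHR that begins 29 bases before the start and 4 CCAAT boxes. That of BUB1B, a checkpoint kinase, holds a CHR that begins 23 bases before the start and no CCAAT. The window of CCNB1, the other B-type cyclin, holds 2 CCAAT boxes and neither TTTGAA nor TTCGAA, the forms of the CHR that were searched. The SMC4 window, 1 of 2 for this condensin gene, holds a CHR on the other strand that begins 75 bases before the start.

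Libraries held 29473750 to 39468157 gene counts. Levels are given as normalised counts (CPM, relative to library size and scaled by TMM factors, which correct for library composition). The marker sums below are the exception: they are CPM of the library totals, without TMM factors. Libraries of the miR-122-5p group detected 21081 to 21611 genes, against 19298 in control mimic 6 and 20545 to 21256 in the other control libraries. The libraries differed in how counts ran with transcript GC content. The slope, in log2 units per 10 percentage points of GC, lay between 0.0336 and 0.229 in miR-122-5p libraries and between -0.318, in control mimic 1, and 0.0119 in control libraries, so it moved with the groups. Among 9 macrophage and monocyte markers, 7 were tested; their summed level ran from 2070 to 2460 CPM with miR-122-5p and from 1800 to 2210 CPM with the control mimic. ITGAM and TYROBP were higher, CD14, CSF1R and CD163 lower; MRC1 had 0 counts in every miR-122-5p library and 0 to 16 in control libraries, and CD68, with 85.79% of its exon length overlapping other genes, had at most 18 counts in a library. Markers of undifferentiated myeloid cells summed to 1760 to 2140 CPM with miR-122-5p and 1580 to 1900 CPM with the control mimic. Of 9, 6 were tested: AZU1 and CTSG were higher, and ELANE, PRTN3, MPO and MYB were not called. NK cell markers summed to 27.2 to 43.2 CPM against 19.1 to 24.9 CPM, nearly all of it GNLY, and endothelial markers to 260 to 294 CPM against 239 to 258 CPM, nearly all of it PECAM1. B cell markers held 3.39 to 4.36 CPM against 1.98 to 3.51 CPM, and fibroblast markers 5.77 to 7.42 CPM against 4.11 to 6.87 CPM. T cell, neutrophil and epithelial markers reached at most 2.42 CPM with miR-122-5p and 4.0 CPM with the control mimic, with CD3D, CD3E, CEACAM8 and EPCAM at 0. The GC slope and the NK cell and endothelial sums did not overlap between the groups. The macrophage and undifferentiated myeloid sums reached higher with miR-122-5p but overlapped. Scaled by TMM factors, PECAM1 overlapped too, at 235.2 to 276.5 CPM against 232.6 to 249.9 CPM, and was not called (edgeR adjusted p = 0.281). The endothelial marker VWF was higher (log2 fold change 0.43, edgeR adjusted p = 0.00282). GNLY (0.65, adjusted p = 4.97e-05) and the B cell marker CD79A (0.56, adjusted p = 0.0205) were higher too. The part of the slope and of these sums in the results was not tested except where a correction for GC content is given.

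Most mitosis and kinetochore genes were higher with miR-122-5p. By edgeR's quasi-likelihood test at an adjusted p under 0.05, adjusted over all 15471 genes, 42 of the 54 tested genes rose (77.8%), 2 fell (SMC4 and ECT2) and 10 were not called. Over all tested genes 50.5% were called, 24.3% higher and 26.2% lower, so the share that rose was over the background and the share that fell (3.7%) under it. The median log2 fold change of the 54 was 1.03 (2.05-fold), beside 0.01 over all tested genes. At least 2-fold and called were 28 genes (51.9%), against 3.79% of all tested genes. In 32 genes (59.3%) the 6 miR-122-5p values all lay above the 6 control values, against 13.4% of all tested genes, and in 2 they all lay below, against 16.1%. The genes collected few reads, with a median of 3.61 CPM against 10.4 CPM for all tested genes, neither corrected for length. In bulk RNA, a larger share of cells in mitosis and more mitotic RNA in each cell cannot be told apart.

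**Figure D1:**
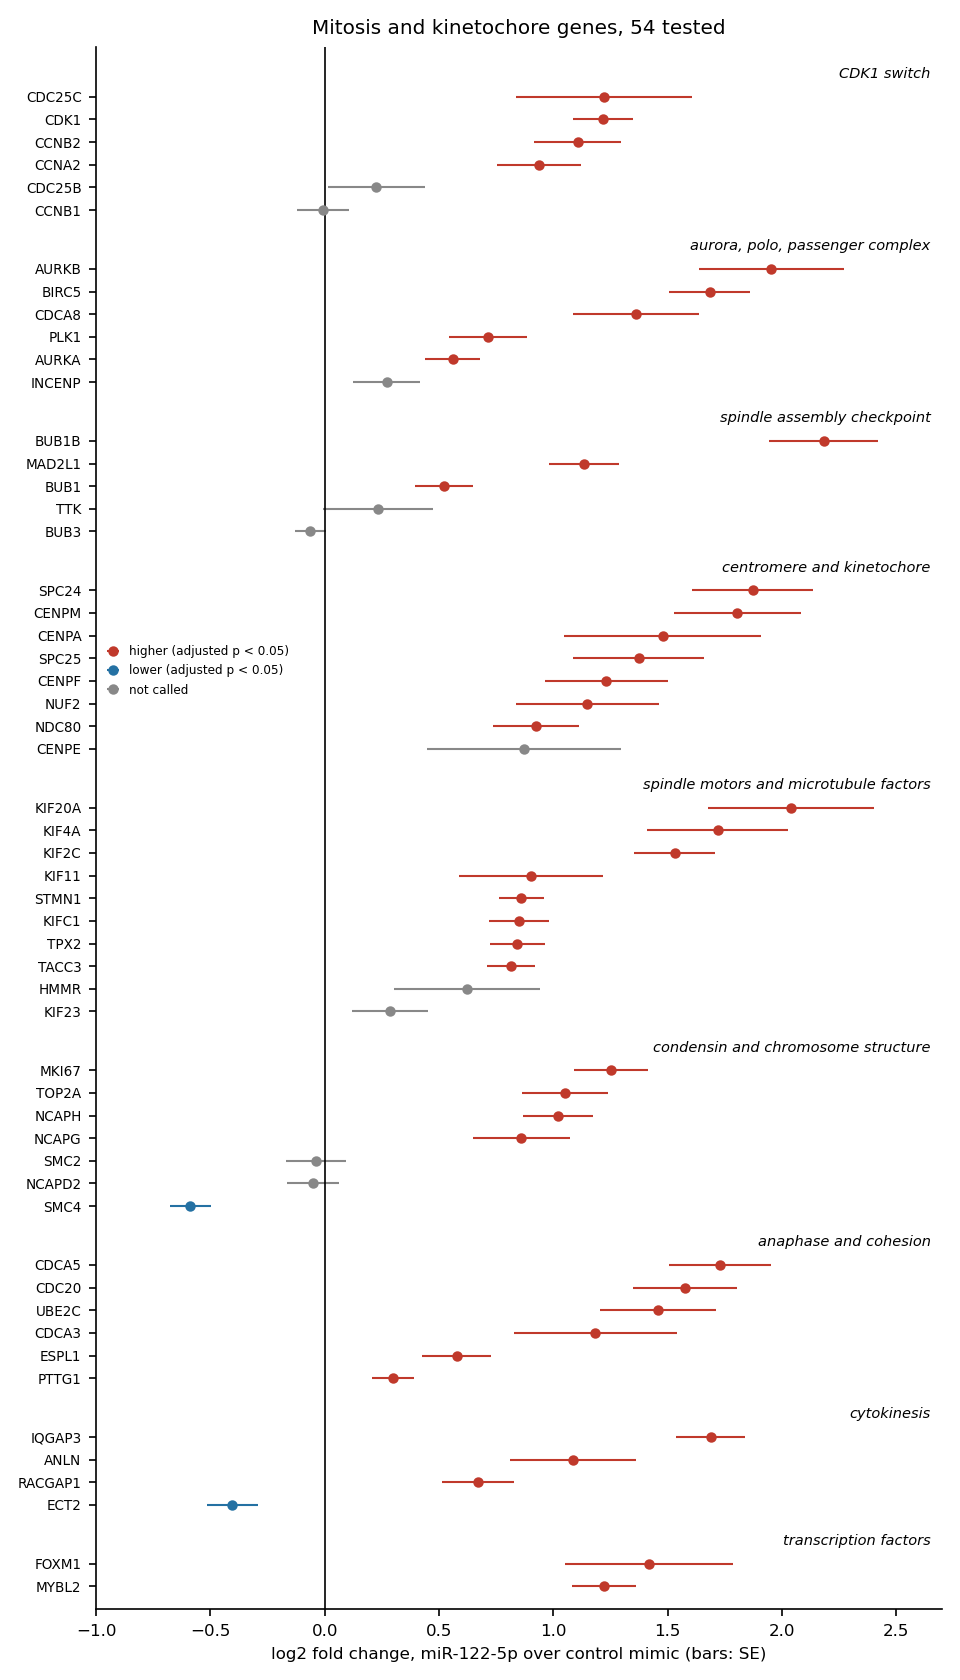
Log2 fold change of the 54 tested mitosis and kinetochore genes (x axis, miR-122-5p over control mimic), grouped by role; points are estimates, bars are standard errors and colours give the call of edgeR's quasi-likelihood test. The 42 genes that rose stand right of 0 in every role, and SMC4 and ECT2 are the 2 that fell.

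A gene can pass the low-count filter through the group in which it is high. In 9 of the 54 tested genes at least 1 control library was under the filter's level of 0.288 CPM, and 8 of these were among the 42 that rose. The 9 are CDC25C, CDCA3, CENPA, CENPE, NUF2, KIF11, KIF20A, KIF4A and FOXM1, of which CENPE was not called. Of the other 45, 34 rose and 21 did so at least 2-fold, with a median log2 fold change of 0.93. The shares given above over all tested genes were not restricted in this way, so they are not a matched background for the 45. The 2 genes that did not pass are both organisers of spindle microtubules with shared exons. PRC1, which bundles midzone microtubules, had 0 to 8 counts with miR-122-5p and 0 to 6 with the control mimic, and 58.39% of its exon length overlaps other genes. NUSAP1 had 8 to 20 counts with miR-122-5p and 0 to 5 with the control mimic, with 62.16% overlap; with no filter its edgeR adjusted p was 0.0148.

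Most genes of the kinase switch into mitosis rose, 4 of 6, but that of its chief cyclin was among the 2 not called. CDK1, the kinase itself (chromosome 10, 60778331 to 60794852, plus strand), ran from 9.85 to 13.7 CPM, median 11.8, with miR-122-5p and from 3.72 to 6.80 CPM, median 4.88, with the control mimic. The groups did not overlap, and the log2 fold change was 1.22 ± 0.13 (SE; edgeR adjusted p = 1.19e-07). CDC25C, a phosphatase that activates CDK1, ran from 0.818 to 2.10 CPM, median 1.05, against 0.166 to 1.01 CPM, median 0.497 (log2 fold change 1.22 ± 0.38, edgeR adjusted p = 0.0112); here the groups overlapped. CCNB2 and CCNA2, which encode cyclins B2 and A2, rose by 1.11 and 0.94 on the log2 scale. CCNB1, which encodes cyclin B1, the main partner of CDK1 in mitosis (chromosome 5, 69167010 to 69178245), ran from 8.39 to 9.64 CPM, median 9.14, with miR-122-5p and from 7.32 to 11.4 CPM, median 8.81, with the control mimic. Its control libraries spanned all 6 miR-122-5p values, and the log2 fold change was -0.01 ± 0.11 (edgeR adjusted p = 0.971). CDC25B, another activating phosphatase, also overlapped, at 2.08 to 3.19 CPM, median 2.76, against 1.22 to 3.12 CPM, median 2.40 (0.23 ± 0.21, adjusted p = 0.395).

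**Figure D2:**
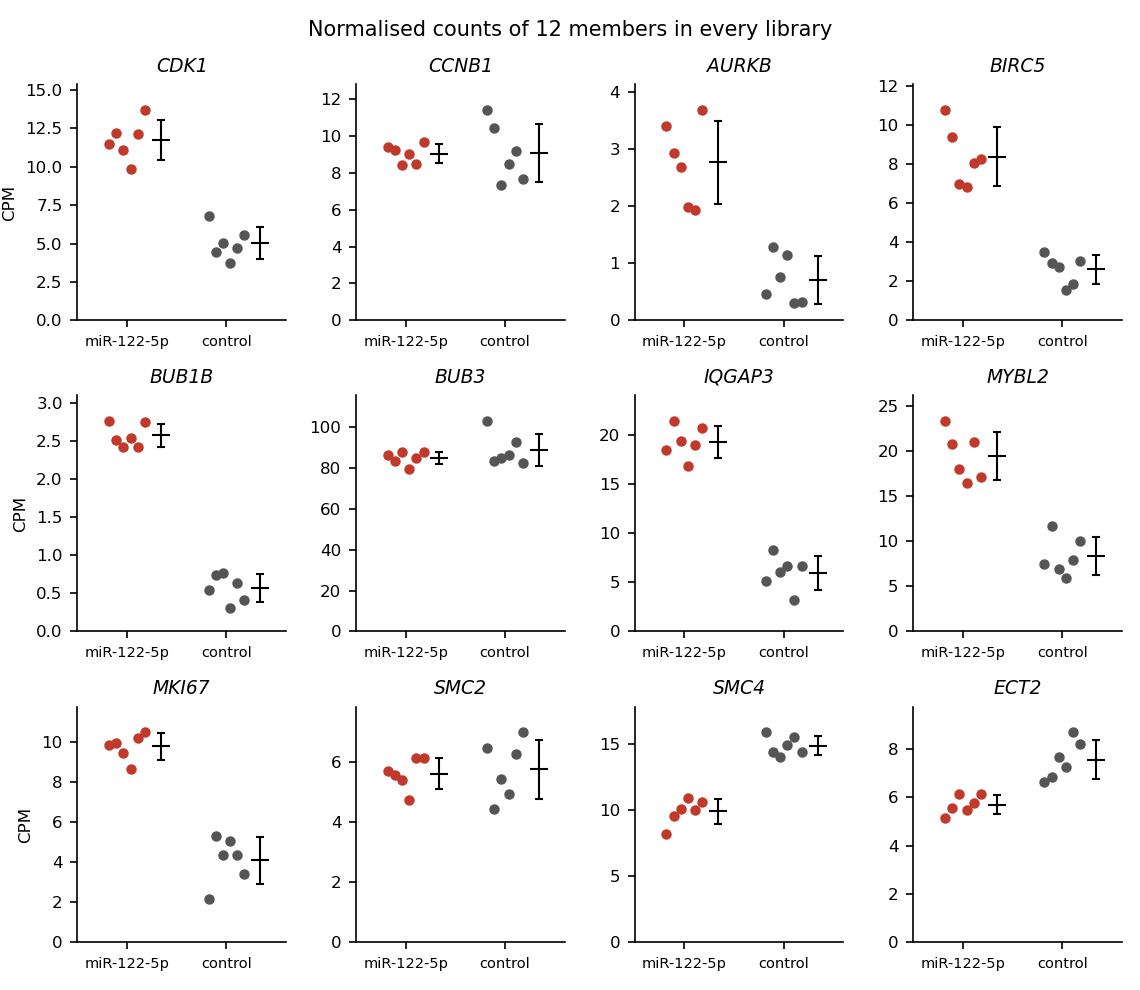
Normalised counts (CPM, y axes from 0) of 12 of the genes in each library, with 1 point per library, miR-122-5p left and control mimic right in each panel, and a line at the group mean. CDK1, AURKB, BIRC5, BUB1B, IQGAP3, MYBL2 and MKI67 have no miR-122-5p library as low as the highest control library; CCNB1, BUB3 and SMC2 overlap; SMC4 and ECT2 run the other way.

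Among the aurora and polo kinases and the chromosomal passenger complex, which corrects faulty attachments at the centromere and then marks the site of division, 5 of 6 rose. BIRC5, which encodes survivin, a subunit of that complex, ran from 6.83 to 10.8 CPM, median 8.17, with miR-122-5p and from 1.55 to 3.53 CPM, median 2.84, with the control mimic (1.68 ± 0.18, edgeR adjusted p = 1.01e-07). AURKB, the kinase of the complex, ran from 1.93 to 3.69 CPM, median 2.80, against 0.304 to 1.28 CPM, median 0.614 (1.95 ± 0.32, adjusted p = 2.68e-05). No control library reached the lowest miR-122-5p library in either gene. CDCA8, which encodes borealin, rose by 1.36. INCENP, the scaffold that holds these 3 proteins together, ran from 6.01 to 8.75 CPM, median 7.11, against 4.78 to 7.98 CPM, median 5.26, and was not called (0.27 ± 0.15, adjusted p = 0.131). Control mimic 2 and 3 lay among the miR-122-5p libraries for INCENP, and without control mimic 2 it was called (0.38, adjusted p = 0.0309). AURKA, the kinase of the spindle poles, collected the most reads of the 6, from 7.89 to 10.6 CPM, median 8.83, against 4.81 to 7.05 CPM, median 6.39, with no overlap (0.56 ± 0.12, adjusted p = 0.000469). PLK1, the polo kinase, rose by 0.71.

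The spindle assembly checkpoint was the role with the widest spread. BUB1B, which encodes BUBR1, the inhibitor of the anaphase-promoting complex at the heart of the checkpoint, had the largest log2 fold change of the 54 genes. It ran from 2.43 to 2.77 CPM, median 2.54, with miR-122-5p and from 0.31 to 0.765 CPM, median 0.594, with the control mimic (2.18 ± 0.24, edgeR adjusted p = 1.58e-07; chromosome 15, 40161023 to 40221136). Every miR-122-5p library held more than 3 times the level of the highest control library. MAD2L1, which binds CDC20, and the kinase BUB1 rose by 1.13 and 0.52. BUB3, the adaptor that brings BUB1 and BUBR1 to kinetochores, collected the most reads of all 54 genes and was highest per length, at 10.2 CPM per kb of exon with miR-122-5p and 10.7 CPM per kb with the control mimic. It ran from 79.5 to 87.8 CPM, median 85.4, against 82.2 to 103 CPM, median 85.5, and was not called (-0.06 ± 0.07, adjusted p = 0.465). TTK, the kinase MPS1 that starts the signal, ran from 1.39 to 2.06 CPM, median 1.68, against 0.957 to 2.43 CPM, median 1.32, with control mimic 1 above all other libraries (0.23 ± 0.24, adjusted p = 0.443).

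At the centromere and kinetochore 7 of 8 genes rose, with a median log2 fold change of 1.30. SPC24, a subunit of the NDC80 complex that holds microtubules, ran from 2.14 to 2.50 CPM, median 2.31, with miR-122-5p and from 0.31 to 1.06 CPM, median 0.576, with the control mimic (1.87 ± 0.27, edgeR adjusted p = 4.68e-06), with no overlap. The other 3 subunits of that complex, SPC25, NUF2 and NDC80, rose by 1.37, 1.15 and 0.93, so its 4 genes moved together. CENPM, of the inner kinetochore, collected the most reads of the 8 and ran from 2.52 to 4.41 CPM, median 3.26, against 0.328 to 1.50 CPM, median 1.09 (1.81 ± 0.28, adjusted p = 1.35e-05). CENPA, the histone variant that marks centromeres, and CENPF, a large protein of the outer kinetochore, rose by 1.48 and 1.23. CENPE, a kinesin that carries chromosomes to the spindle equator, was the lowest per length of the 54 genes. It ran from 0.41 to 0.912 CPM, median 0.758, against 0.122 to 0.752 CPM, median 0.323, and was not called (0.87 ± 0.42, adjusted p = 0.0934). The highest control value of CENPE was control mimic 1, and without that library it was called (1.18, adjusted p = 0.0307).

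Of 10 tested spindle motors and microtubule factors, 8 rose. STMN1, which encodes the microtubule-destabilising protein stathmin and collected the most reads among them, ran from 31.5 to 38.7 CPM, median 33.8, with miR-122-5p and from 15.3 to 22.7 CPM, median 18.5, with the control mimic (0.86 ± 0.10, edgeR adjusted p = 2.63e-07). KIF20A, a kinesin of the midzone, had the largest change of the 10, at 0.614 to 1.18 CPM, median 0.934, against 0.125 to 0.31 CPM, median 0.224 (2.04 ± 0.36, adjusted p = 7.59e-05). Neither gene overlapped between the groups. The chromosome-bound kinesin KIF4A and the microtubule-depolymerising kinesin KIF2C rose by 1.72 and 1.53, and KIFC1, TPX2, TACC3 and KIF11 by 0.82 to 0.90. KIF11, which pushes the spindle poles apart, had the largest p of these (0.90 ± 0.32, adjusted p = 0.0213). It was not called without miR-122-5p 4 (0.80, adjusted p = 0.0566). Without control mimic 1 and 6 together it was not called either (0.66, adjusted p = 0.06). KIF23, the kinesin of the centralspindlin complex, ran from 4.07 to 5.33 CPM, median 4.99, against 2.56 to 5.87 CPM, median 4.01 (0.29 ± 0.17, adjusted p = 0.168). HMMR, a spindle protein also known as a hyaluronan receptor, ran from 1.16 to 2.17 CPM, median 1.66, against 0.517 to 2.17 CPM, median 1.04 (0.62 ± 0.32, adjusted p = 0.114). Control mimic 1 was the highest control library for both, and without it KIF23 (0.43, adjusted p = 0.0258) and HMMR (0.95, adjusted p = 0.0116) were called.

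Condensin, the ring that folds chromosomes in mitosis, split by subunit. SMC4, 1 of the 2 core subunits of both condensins (chromosome 3, 160399274 to 160434962), collected the most reads of the 7 genes of chromosome structure. It ran from 8.15 to 10.9 CPM, median 10.1, with miR-122-5p and from 14.0 to 15.9 CPM, median 14.7, with the control mimic, with no overlap (-0.59 ± 0.09, edgeR adjusted p = 1.42e-05). SMC2, the other core subunit, ran from 4.75 to 6.14 CPM, median 5.64, against 4.43 to 7.02 CPM, median 5.87 (-0.04 ± 0.13, adjusted p = 0.838). NCAPD2, a subunit of condensin I, ran from 9.10 to 12.9 CPM, median 9.78, against 8.64 to 12.6 CPM, median 10.2 (-0.05 ± 0.12, adjusted p = 0.743). The groups overlapped in both genes. NCAPH and NCAPG, the other subunits of condensin I, rose by 1.02 and 0.86; 33.14% of the exon length of NCAPG and 25.64% of that of SMC4 overlaps other genes. MKI67, which encodes the proliferation marker Ki-67 that coats mitotic chromosomes, ran from 8.65 to 10.5 CPM, median 9.90, against 2.14 to 5.30 CPM, median 4.35 (1.25 ± 0.16, adjusted p = 1.33e-06), with no overlap. TOP2A, the topoisomerase that untangles sister chromatids, rose by 1.05.

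All 6 genes grouped under anaphase and sister cohesion rose. CDCA5, which encodes sororin, the protector of sister cohesion, ran from 5.17 to 8.32 CPM, median 6.21, with miR-122-5p and from 0.868 to 2.81 CPM, median 2.07, with the control mimic, without overlap (1.73 ± 0.22, edgeR adjusted p = 1.45e-06). CDC20, the activator of the anaphase-promoting complex, and UBE2C, its ubiquitin-conjugating enzyme, rose by 1.58 and 1.46. CDCA3, grouped here though linked to entry into mitosis, rose by 1.18 and ESPL1, the separase that cuts cohesin, by 0.58. PTTG1, which encodes securin, the inhibitor of separase, collected the most reads of the 6 and had the smallest change. It ran from 11.9 to 14.8 CPM, median 13.5, against 9.73 to 12.1 CPM, median 11.1, with a slight overlap (0.30 ± 0.09, adjusted p = 0.0103).

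In cytokinesis 3 of 4 genes rose and 1 fell. IQGAP3, a scaffold protein of the cell cortex, had the smallest p of the 54 genes and lies on chromosome 1 (156525405 to 156572604, minus strand). It ran from 16.9 to 21.4 CPM, median 19.2, with miR-122-5p and from 3.16 to 8.26 CPM, median 6.34, with the control mimic (1.69 ± 0.15, edgeR adjusted p = 8.21e-09). ANLN, the actin-binding protein anillin of the contractile ring, and RACGAP1, the partner of KIF23 in centralspindlin, rose by 1.09 and 0.67. ECT2, the exchange factor that centralspindlin recruits to activate RhoA, ran from 5.12 to 6.15 CPM, median 5.65, against 6.63 to 8.70 CPM, median 7.44 (-0.40 ± 0.11, adjusted p = 0.00445; chromosome 3, 172750682 to 172821474). All 6 values of ECT2 lay below the control libraries, but the call was lost under every correction for GC content described below.

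Both transcription factors rose. MYBL2, which binds the promoters of the group with MuvB, ran from 16.5 to 23.4 CPM, median 19.4, with miR-122-5p and from 5.92 to 11.7 CPM, median 7.73, with the control mimic (1.22 ± 0.14, edgeR adjusted p = 2.58e-07). The groups did not overlap, and at 7.01 CPM per kb against 3.01 CPM per kb it ranked behind BUB3 alone in level per length with miR-122-5p. FOXM1, the factor that acts late in the cycle, collected few reads, from 0.479 to 1.72 CPM, median 1.01, against 0.174 to 0.547 CPM, median 0.389 (1.42 ± 0.37, adjusted p = 0.00285), with some overlap.

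Across libraries the summed level separated the groups. Summed over the 54, the level was 386.1 to 437.9 CPM, median 420.5, with miR-122-5p and 267.2 to 305.9 CPM, median 282.3, with the control mimic. The means were 414.9 ± 19.3 and 283.8 ± 15.9 CPM (SD, n = 6 each), a ratio of 1.46, with BUB3 alone at a median of 85.4 and 85.5 CPM. No library of either group fell within the range of the other. Within the control group, control mimic 1 was highest for 17 genes, and within the miR-122-5p group, library 4 was lowest for 18. The log2 fold change ran against the mean log2 CPM across the 54 genes (Pearson r = -0.49, Spearman rho = -0.48) and weakly with transcript GC content (r = 0.31, rho = 0.31); these describe genes that share the same 12 libraries. Reads of 13 genes can be shared with annotated copies of similar name, such as those of PTTG1 (PTTG2 and PTTG3P) and UBE2C (4 pseudogenes), and their values are uncertain to that extent.

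**Figure D3:**
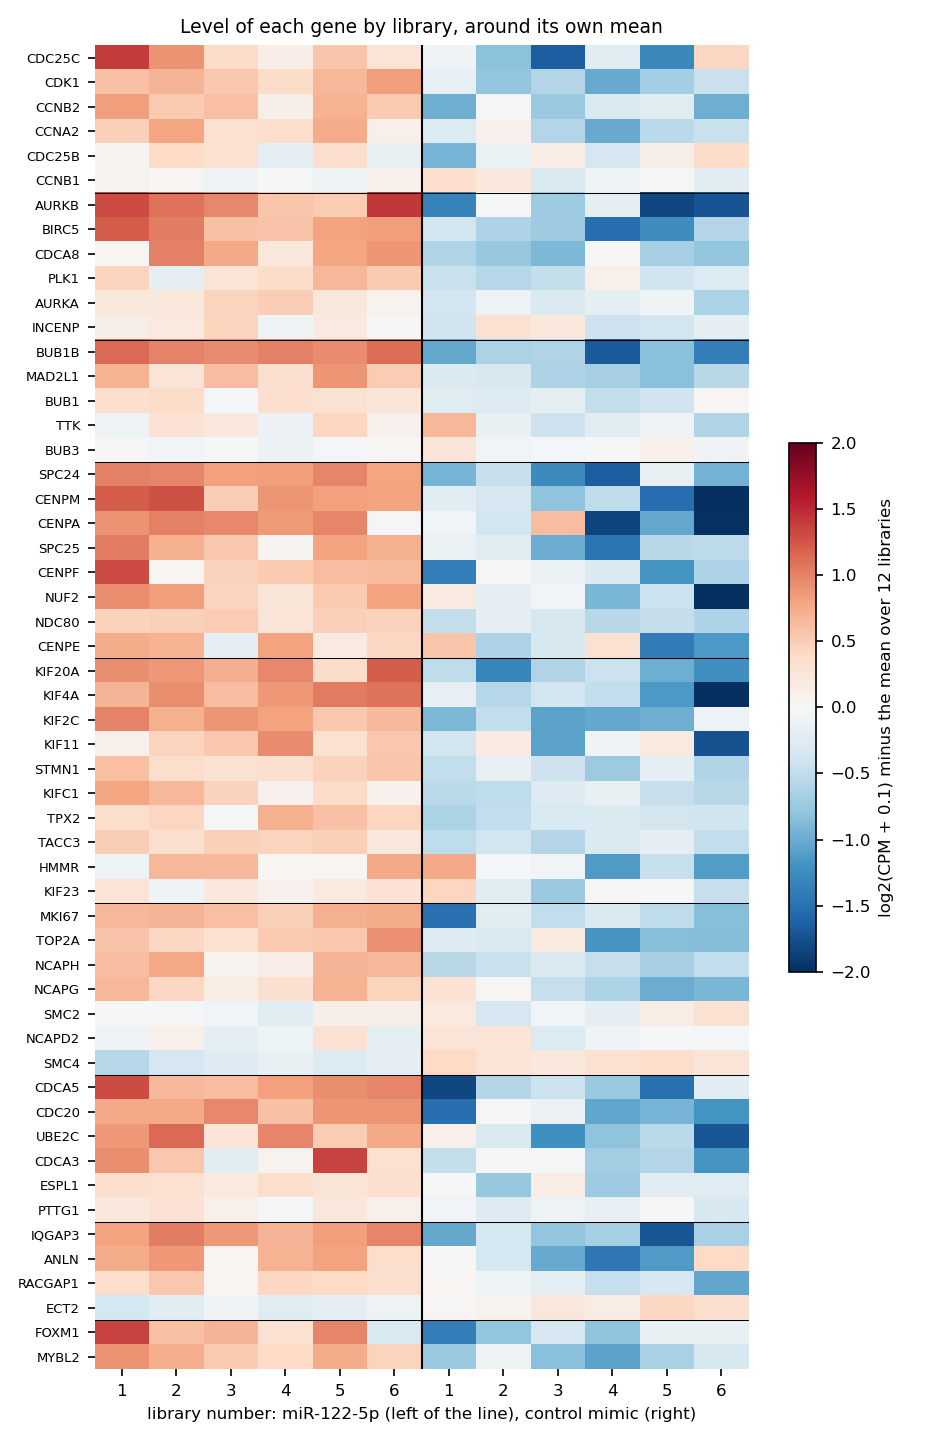
Level of each of the 54 tested genes (rows, grouped by role) in the 12 libraries (columns, miR-122-5p left of the line and control mimic right), as log2(CPM + 0.1) minus the gene's mean over the libraries; red is above and blue below that mean. In 32 rows all 6 miR-122-5p values lie above all control values, in SMC4 and ECT2 they lie below, and the other 20 overlap.

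Because the GC slope of the libraries moved with the groups, the genes were also compared after corrections for it. The median transcript GC content of the 54 genes was 46.7%, near the 48.9% of all tested genes. With each library's trends with GC content and transcript length removed as offsets, 47 genes were higher and 1 lower, against 23.3% higher and 23.5% lower over all tested genes, and the median was 1.20. The 47 held all 42 called without the correction, plus BUB3, CENPE, KIF23, HMMR and SMC2. BUB3 then stood at 0.21 and SMC2 at 0.31, both above 0, while SMC4 kept its direction at -0.25 (edgeR adjusted p = 0.0142). With the GC slope itself as a covariate, a fit that called 3004 genes in all where the uncorrected one called 7810, 18 genes were higher and 0 lower, against 7.22% higher and 12.2% lower over all tested genes. The 18, all among the 42, were CDK1, BUB1B, MAD2L1, BIRC5, SPC24, KIF20A, KIF2C, KIF4A, TPX2, TACC3, STMN1, ANLN, IQGAP3, TOP2A, NCAPH, UBE2C, ESPL1 and MYBL2. In that fit 49 of 54 log2 fold changes were above 0, with a median of 0.79, and the median standard error was 0.345, against 0.186 without the covariate. SMC4 stood at -0.40 (adjusted p = 0.0724) and MKI67 at 0.64 (adjusted p = 0.0769).

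**Figure D4:**
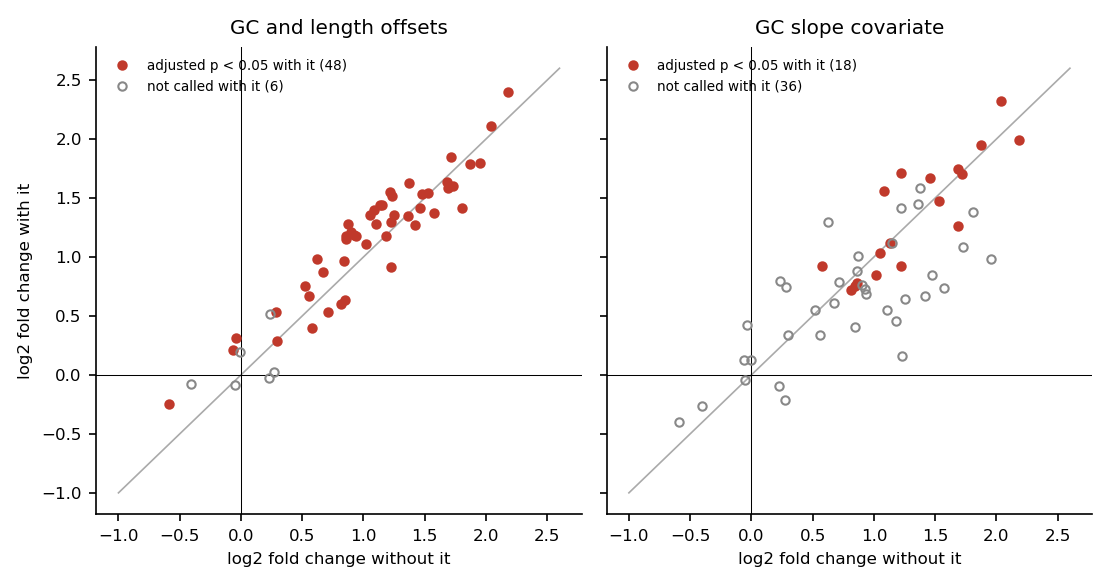
Log2 fold change of each of the 54 genes without a GC correction (x axes) against the value with GC and length offsets (left) or with the GC slope as a covariate (right); filled points were called with the correction, open ones were not, and the grey line marks equal values. With the offsets 48 points are filled and most lie on or above the line, and with the covariate 18 are filled.

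The libraries with the nearest GC slopes in the 2 groups were miR-122-5p 6 (0.0336) and control mimic 2 (0.0119), picked after the slopes were seen. Between these, 48 of the 54 genes were higher in miR-122-5p 6, with a median log2 ratio of 0.71 on the log2(CPM + 0.1) scale, against 50.7% of all tested genes and a median of 0.01. At least 2-fold higher were 19 of the 54, against 4.08% of all tested genes. This sets 1 library against 1 and has no test.

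Other genes of mitosis, in 8 lists of 115 genes, were called in both directions. Of 113 tested, 39 were higher, 28 lower and 46 not called. Their median log2 fold change was 0.14. The share higher (39 of 113) and the share lower (28 of 113) stood nearer to the 24.3% and 26.2% of all tested genes than those of the 54. In 17 of the 113 all miR-122-5p values lay above the control values and in 17 all lay below. These counts are near the background, as 13.4% of all tested genes lay above and 16.1% below. With GC and length offsets 52 of the 113 were higher and 17 lower, and the median was 0.24. The offsets gave 23.3% higher and 23.5% lower over all tested genes. With the GC slope covariate 11 were higher and 6 lower, against 7.22% and 12.2% of all tested genes.

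Most genes of the condensin II list and of the spindle list were higher. Over all tested genes 24.3% were higher and 26.2% lower. The 3 subunits of condensin II besides the shared core of SMC4 and SMC2 rose. These were NCAPD3, NCAPG2 and NCAPH2, at 1.06, 0.76 and 0.61, and none of their values overlapped between groups. Of 24 spindle, centrosome and cytokinesis genes 15 rose and 2 fell (median 0.69), with GTSE1, SPAG5 and KIF22 at 1.47, 0.79 and 0.66 and KIF20B and CKAP2 at -1.08 and -0.41. KIF20B, a kinesin of late cytokinesis, ran from 1.34 to 2.40 CPM with miR-122-5p and from 2.76 to 5.38 CPM with the control mimic (edgeR adjusted p = 8.48e-05). With GC and length offsets 18 of the 24 were higher and 1 lower, and all 3 condensin II genes were higher. With the GC slope covariate 2 of the 24 were higher and 0 lower, and 2 of the 3 condensin II genes were higher. Other kinetochore genes were higher in 12 of 30 and lower in 5 (median 0.30). With the offsets 14 of the 30 were higher and 1 lower, and with the covariate 2 were higher and 1 lower. HJURP, the chaperone that loads CENPA, rose by 1.57 ± 0.23 and ZWINT, of the outer kinetochore, by 1.16 ± 0.17, whereas NSL1, of the MIS12 complex, fell by 0.76 on the log2 scale. NSL1 ran from 7.48 to 8.99 CPM with miR-122-5p and from 11.6 to 15.8 CPM with the control mimic, with no overlap.

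Regulators of the CDK1 switch were called in both directions. PKMYT1, an inhibitory kinase of CDK1, rose by 1.17, with 31.64% of its exon length shared. MASTL, the kinase Greatwall that keeps the phosphatase against CDK1 switched off, had the smallest p of all 8 lists. It ran from 21.7 to 29.2 CPM with miR-122-5p and from 44.6 to 55.0 CPM with the control mimic (-0.98 ± 0.08, edgeR adjusted p = 2.98e-09), and it stayed called with the offsets (-0.76) and with the covariate (-0.73). CKS2, a small CDK subunit, changed by -0.57. In all, 4 of these 8 genes rose and 2 fell, beside 24.3% higher and 26.2% lower over all tested genes.

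Of the cohesin ring and its loaders 9 of 12 were lower and 1, the acetyltransferase ESCO2, higher at 0.96. Over all tested genes 26.2% were lower and 24.3% higher, which is also the background of the lists that follow. The ring subunits STAG2 and RAD21 changed by -0.58 and -0.40 and the loader MAU2 by -0.50. In 5 of the 12 all miR-122-5p values lay below the control values, against 16.1% of all tested genes. These transcripts had a median GC content of 39.8%. With GC and length offsets 4 were lower and 2 higher, and the list's median moved to -0.05, against -0.34 without them, and with the GC slope covariate 1 was lower and 0 higher. MAU2 stood at -0.68 with the offsets (edgeR adjusted p = 1.18e-08). The list of the anaphase-promoting complex holds, besides subunits, the ubiquitin-conjugating enzyme UBE2S, FBXO5 and FZR1. Of its 17 genes 6 were lower and 2 higher. CDC27 stood at -0.72, UBE2S at -0.73, ANAPC10 at -0.77, FBXO5 at -0.47 and ANAPC11 at 0.42. With the covariate 2 of the 17 were lower and 2 higher. FZR1, the coactivator CDH1, stood at 0.18 (adjusted p = 0.046) and at -0.24 with the offsets, and it lost its call without any 1 of 8 libraries, miR-122-5p 1, 2, 3, 4 or 5 or control mimic 1, 5 or 6 (adjusted p 0.0512 to 0.121). Among checkpoint and cohesion protectors, 1 of 7 was higher (MAD1L1 at 0.35, -0.02 with offsets) and 2 were lower (MAD2L1BP at -0.24, SGO2 at -0.73). In the list of DREAM and MuvB genes 1 of 12 was higher and 2 were lower, against 50.5% called over all tested genes: TFDP1 stood at 0.35, the MuvB subunit LIN52 at -1.07 and DYRK1A, a kinase that phosphorylates LIN52, at -0.50. With GC and length offsets 5 of the 12 were higher and 3 lower, and with the GC slope covariate 0 and 0.

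**Figure D5:**
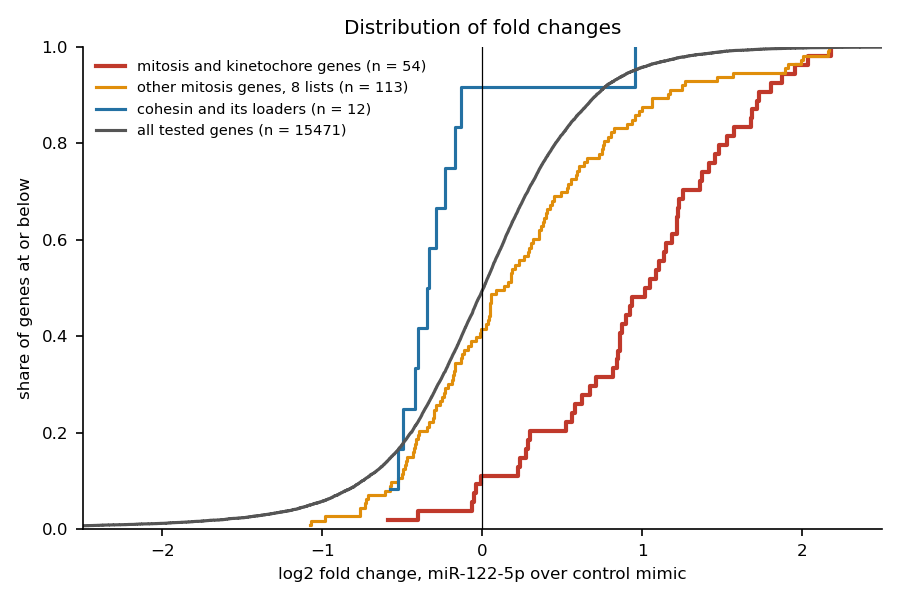
Share of genes (y axis) at or below each log2 fold change (x axis, miR-122-5p over control mimic) for the 54 mitosis and kinetochore genes, the 113 other mitosis genes, the 12 cohesin genes among them, and all 15471 tested genes. The 54 have the highest of the 4 medians, at 1.03, and the cohesin genes the lowest, at -0.34.

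The CHR was common among the promoters, in genes that rose and in genes that did not. A CHR (TTTGAA or TTCGAA, either strand, overlaps between motifs allowed) was found in at least 1 window of 35 of the 47 genes (74.5%), against 19.5% of 27305 gene symbols in the RefSeq table. CCAAT, on either strand, was found in 72.3% against 39.7%, and a CHR with 2 or more CCAAT boxes in 36.2% against 2.35%. Among the tested genes with a window, 25 of 33 with a CHR rose (median 1.09) and 10 of 12 without one (median 0.98). Over all 10642 tested genes with a window, 20.6% of those with a CHR were higher (median -0.10), against 26.6% of those without (median 0.01). The median GC content of the windows was 58.7% with a CHR and 65.8% without. These shares carry no correction for GC content, and its part in them was not tested. The printed windows show the spread: the CHR stands in CCNB2 and BUB1B, which rose, and in SMC4, which fell. CCNB1, with neither form, was not called, while AURKB, KIF20A and SPC24, also with neither form in their windows, rose by 1.95, 2.04 and 1.87. Other forms of the CHR were not searched for, so genes counted as without a CHR may hold one. A match is a description of these letters and does not show binding.

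Matches to the miR-122-5p seed were found in a smaller share of the 54 genes than of all tested genes, as a description with no test. Of the 54 genes, 8 (14.8%) held a match of at least 7 bases in the longest annotated 3′ UTR, against 25.7% of 12892 tested genes with a 3′ UTR. These 8 had a median log2 fold change of 1.22, against -0.04 for all tested genes with such a match. Windows of 30 bases (GENCODE 29, GRCh38, transcript strand) are printed for 4 of the genes, with the paired bases in capitals.
KIF11, position 1074: gctctgtgcccACACTCCAagacctgtgcc
KIF2C, position 179: agtgacatgggACACTCCttttctgttcct
MKI67, position 2186: ccaaccaccacACACTCCctgctgttttcc
BIRC5, position 1455: tagcagaaaatgCACTCCAgcctctgtact
Positions count from the first base of the 3′ UTR. The site printed for KIF11 is an 8mer, which pairs with the whole seed and ends in A, and no other of the 54 genes held an 8mer; KIF2C and MKI67 held 7mers that pair with bases 2 to 8, and BIRC5 a 7mer of bases 2 to 7 followed by A. These 4 genes rose, by 0.90, 1.53, 1.25 and 1.68. Of the other genes with a match of at least 7 bases, CDCA3, ESPL1 and FOXM1 rose, by 1.18, 0.58 and 1.42. BUB3, also with such a match, was not called (-0.06, edgeR adjusted p = 0.465). Neither SMC4 nor CCNB1 held a match, and ECT2 held a match of 6 bases.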

How the data were processed

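Per the labels' protocols, RNA came from Trizol extraction, and 1 µg went into each library (NEBNext Ultra kit). The authors deposited the values as unnormalised read counts for each gene. Named in the submitters' processing notes are HISAT2 2.0.5, featureCounts 1.5.0-p3 and hg38; strand setting and annotation: not given in the sources used here. Thus reads of overlapping and antisense genes cannot be told apart. Control columns were matched to the control mimic by name and number. All 58735 identifiers matched GENCODE 29, used for symbols, coordinates, GC content, length and 3′ UTRs.

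In R 4.3.3, filterByExpr kept 15471 genes (28537 were at 0 throughout), which were scaled by TMM and tested with edgeR 4.0.16 (quasi-likelihood test, all 12 libraries, no covariate), with Benjamini-Hochberg adjustment across the tested genes; genes under 0.05 were called. Fold changes are of miR-122-5p over the control mimic, and their median standard error was 0.124 on the log2 scale. A gene's groups do not overlap when all 6 values of one lie above all 6 of the other. The scripts were tested on simulated data. Between libraries of a group, chi-square over its degrees of freedom was 7.38 to 65.5, beyond sampling noise, and all were counted as separate.

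Alternatives were DESeq2 1.42.0, limma-voom (limma 3.58.1), RLE factors, library totals, no filter, a floor of 1 CPM in 6 libraries, a block for the replicate number, offsets from splines of GC content and length (4 degrees of freedom), the library's own GC slope as covariate, an adjusted p under 0.01 and each library left out; leaving out control mimic 1 and 6 together, and the pair of libraries nearest in GC slope, were added after seeing the data. The members and lists were chosen with earlier results of these data known. Values are given in each role for the gene of smallest p, of largest change and of most counts, and for every gene lower, not called or not tested; in other lists, for the 3 called genes of smallest p and any of a minority direction of 3 or fewer. The values of 1 list of markers and the sequence of 1 site are not reported here.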

Additional observations from a re-analysis of the deposited data

Results flagged for a closer look

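In 7 of 110 sets of 6 libraries, the 54 genes and their summed level in each group, a single library stood apart from the other 5; chance flags about 1 set in 20. BUB1 was lowest in miR-122-5p 3, at 4.95 CPM, where the others held 6.09 to 6.62 CPM. CENPA was lowest in miR-122-5p 6, at 0.704 CPM, against 1.38 to 1.55 CPM. NDC80 was lowest in miR-122-5p 4, at 1.98 CPM, against 2.30 to 2.38 CPM. CENPF was highest in miR-122-5p 1, at 4.22 CPM, against 1.71 to 2.62 CPM. TOP2A was highest in miR-122-5p 6, at 10.8 CPM, against 7.08 to 8.47 CPM. TTK was highest in control mimic 1, at 2.43 CPM, against 0.957 to 1.43 CPM, and CDCA8 in control mimic 4, at 1.01 CPM, against 0.499 to 0.637 CPM. The 7 values come from 6 libraries. BUB1, CENPA, NDC80, CENPF, TOP2A and CDCA8 kept their calls, and TTK stayed not called, with any 1 library left out.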

How the results depend on the processing

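The number of mitosis and kinetochore genes higher with miR-122-5p was 42 of 54. It lay between 38 and 47 in every alternative except the GC slope covariate, where it was 18. The 38 are of the 49 genes that passed the floor of 1 CPM in 6 libraries. Leaving out a library gave 41 to 45. The number lower was 2, and it was 1 with GC and length offsets, 1 with the replicate block and the offsets together, and 0 with the covariate. The median log2 fold change of 1.03 moved to 1.24 with the replicate block and the offsets and to 0.79 with the covariate, and lay between 0.96 and 1.10 with a library left out. In the other mitosis genes, 39 higher became 52 with GC and length offsets, 11 with the covariate and 25 at an adjusted p under 0.01. The 28 lower became 15 with the replicate block and offsets, 17 with offsets alone and 6 with the covariate. Over all tested genes the covariate left 3004 calls, 1117 higher and 1887 lower. The number of the 54 genes without overlap, 34 in all, lay between 33 and 39 in the alternatives run. The cause of these moves was not tested.

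BUB3 changed sign to 0.21 (offsets, with and without the replicate block), SMC2 to 0.31 (0.314 with offsets, 0.315 with the block too), MAD1L1 to -0.02 (-0.018 and -0.021; -0.16 with the covariate) and FZR1 to -0.24 (-0.237 and -0.234; -0.14 with the covariate). The replicate numbers did not pair the libraries: the correlations of same-numbered deviations ran from -0.105 to 0.066, none of 6 above 0.1, and 2 libraries correlated best with their own number. With the replicate block alone 42 genes were higher and 2 lower, with a median of 1.07, and 38 and 27 of the other mitosis genes. Depth limits the genes of lowest count: KIF20A and CENPE had standard errors of 0.36 and 0.42, against a median of 0.186 over the 54.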
